A study of Homo sapiens with 12 samples.

Results

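The genes described here encode RNA polymerase II and the factors that start it, release it from pausing and carry it through a gene. The set held 42 genes, chosen by name: 11 subunits of the polymerase and 31 kinases, cyclins and elongation or initiation factors. Each gene was represented by the probe set that names it alone and has the highest mean over the 12 arrays. Such a probe set existed for 41 of the 42 genes, among 19775 genes on the arrays in all. All 41 passed the filter on low values (a value over log2 4 on 3 arrays or more), among 11184 genes that did. The remaining gene, GTF2H2, was covered only by probe sets that also name other genes.

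Expression was measured in HK-2 cells, an immortalised line of human proximal tubule epithelium from the kidney, in a study of expression signatures of toxicity. The groups were cells given a high dose of a compound labelled Aa for 24 h, control cells given the vehicle for 24 h, cells given Aa for 48 h and control cells given the vehicle for 48 h. Each group held 3 biological replicates, per the labels. The sources used here do not give what Aa is, its dose or what separated the replicates, so the p-values measure the spread between these samples. All 4 groups come from 1 cell line, and the vehicle is not named. In such bulk samples, fewer cells of a type and less RNA per cell cannot be told apart.

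RNA polymerase II transcribes protein-coding genes. After initiation, the kinase CDK7 in the general factor TFIIH phosphorylates the tail of the largest subunit, and the polymerase commonly pauses a short way into the gene. P-TEFb, made of CDK9 and a T-type cyclin, releases it, and is itself held inactive by HEXIM1 bound to the 7SK RNA. The PAF1 complex, SPT6, FACT and TFIIS then assist elongation through nucleosomes and past stalls.

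In Aa-treated cells these genes did not move in 1 direction. At 24 h, 12 of the 41 rose, 7 fell and 22 did not pass limma's test at a Benjamini-Hochberg adjusted p of 0.05 over all genes tested. Of all 11184 genes, 26.3% rose and 22.8% fell in that comparison. At 48 h, 15 rose, 8 fell and 18 did not pass, and of all genes 30.6% rose and 33.9% fell. Changes of at least 1 on the log2 scale passed in 4 genes upward (10.9% of all genes) and 2 downward (9.76%) at 24 h, and in 7 upward (14.6%) and 3 downward (17.3%) at 48 h. The median log2 change of the 41 genes was 0.07 at 24 h, against 0.02 over all genes tested, and 0.16 at 48 h, against -0.03. The polymerase's largest subunit POLR2A, the P-TEFb cyclin CCNT1, the P-TEFb inhibitor HEXIM1, the elongation factor SUPT6H and the TFIIS gene TCEA2 had the largest rises at 48 h, each over 3-fold. The 3 genes of the CDK7 kinase module fell at 48 h, and so did the small polymerase subunit POLR2L.

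At both times, 10 genes rose: POLR2A, POLR2C, POLR2K, SUPT5H, SUPT6H, CCNT1, HEXIM1, TCEA2, CTR9 and GTF2H1. Another 4 genes fell at both times: POLR2L, CDK12, MNAT1 and LARP7. At 48 h alone 5 passed as higher (POLR2F, SSRP1, CDK9, CCNK and PAF1) and 4 as lower (CDK7, CCNH, TCEA1 and CDC73). At 24 h alone 2 passed as higher (POLR2H and RTF1) and 3 as lower (POLR2G, POLR2I and SUPT16H). No gene passed in opposite directions at the 2 times, although PAF1 did in a fit with the replicate number as a block, and 13 passed at neither. Of the 41 changes, 33 had the same sign at both times, with a Spearman correlation of 0.81 across these 41 genes, which share their arrays. These classes and this correlation were not set beside the same over all genes tested, so they are not shown to be particular to this set. Passing at 1 time and missing at the other does not show that the times differ, which is tested for each gene further on.

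**Figure D1:**
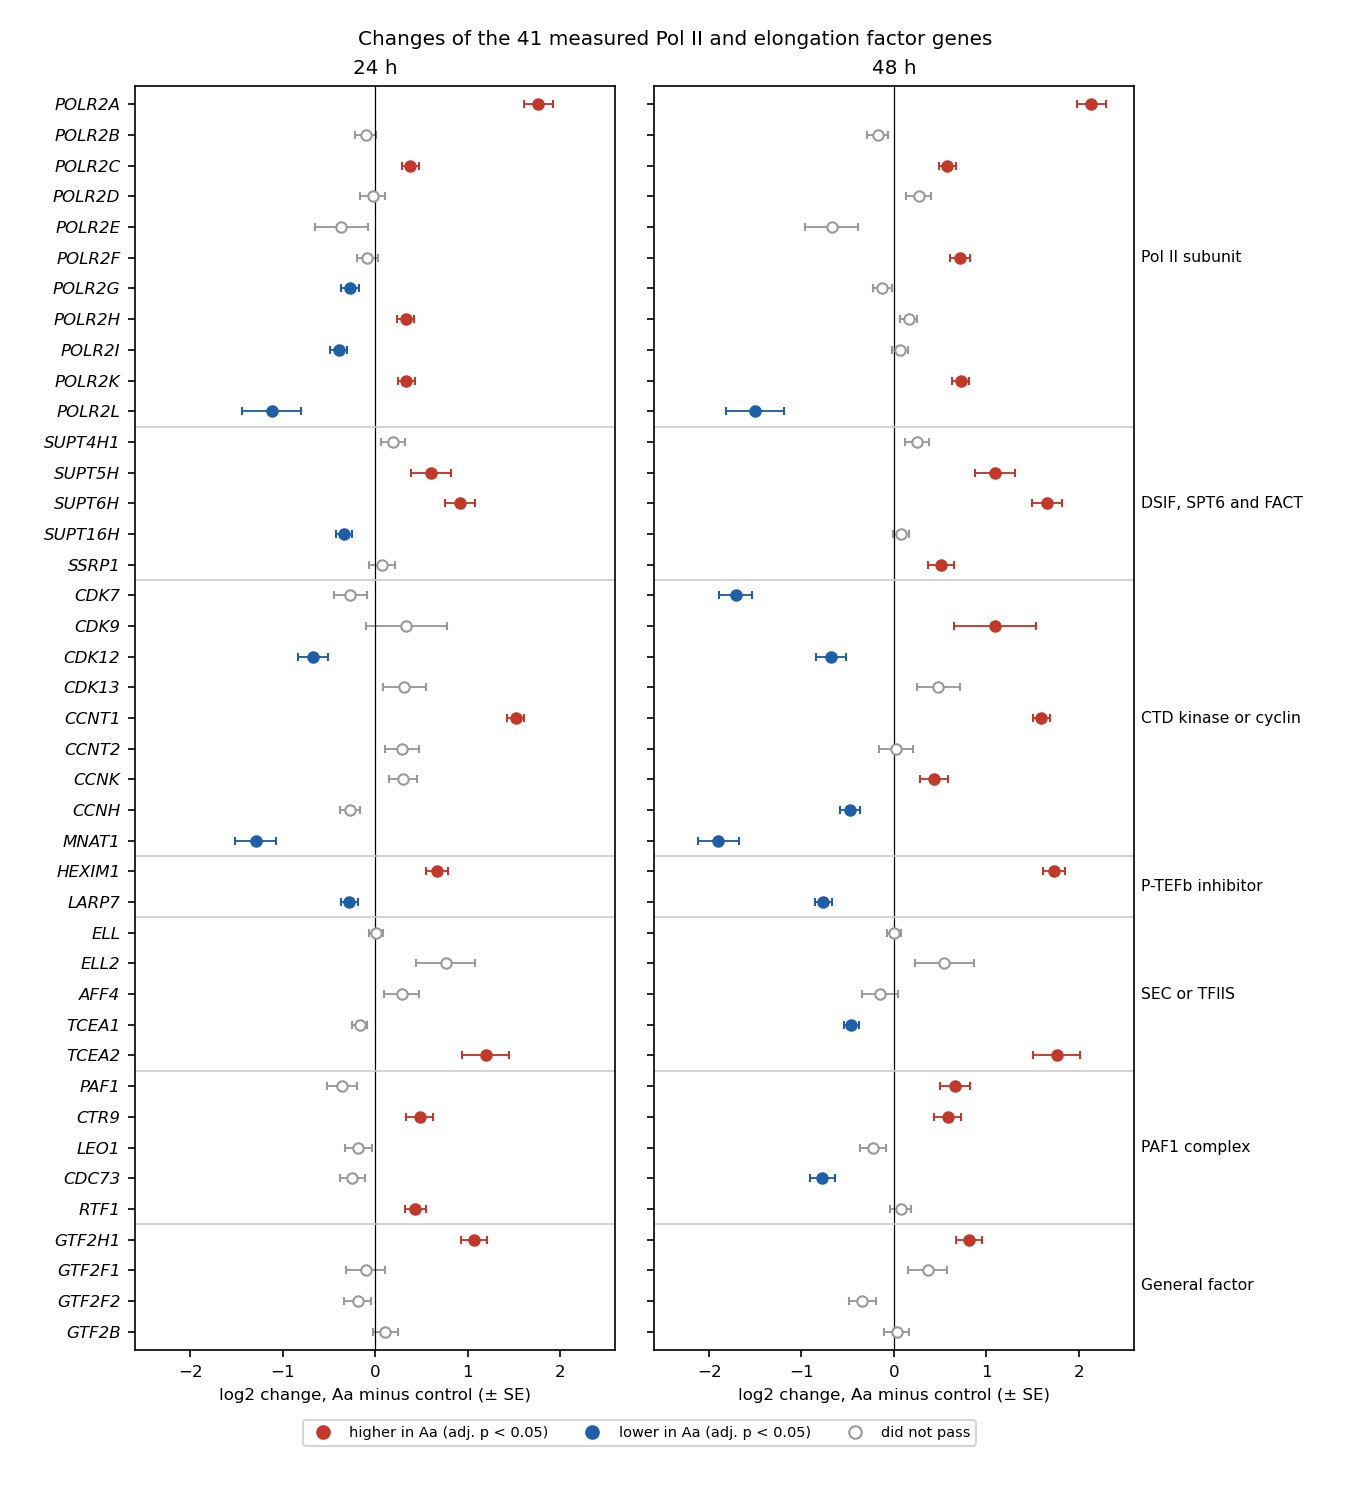
Log2 change (Aa minus control, ± SE from limma, n = 3 arrays per group) of the 41 measured genes at 24 h and 48 h, grouped by role. Filled points passed at an adjusted p of 0.05, red for higher and blue for lower in Aa: 12 and 7 genes at 24 h, 15 and 8 at 48 h, with CCNK at 48 h turning to -0.04 when arrays were scaled to the hybridisation controls.

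The promoter sequences of 5 of these genes are shown because these genes had among the largest rises (POLR2A, TCEA2, HEXIM1) and falls (MNAT1, CDK7) that passed at 48 h. Each is the 250 bases before the RefSeq start of the gene in GRCh38.p14, 5′ to 3′ on the gene's own plus strand: chr17:7484116-7484365 for POLR2A, chr20:64056722-64056971 for TCEA2, chr17:45148225-45148474 for HEXIM1, chr14:60734511-60734760 for MNAT1 and chr5:69234636-69234885 for CDK7. Capitals mark matches on either strand to 6 motifs, and no 2 printed matches overlap. The core promoter motifs were the TATA box, searched as TATAAA, the CCAAT box by the letters of its name, and the GC box, searched as GGGCGG. The factor motifs were the AP-1 site, searched as TGACTCA, the E-box, searched as CACGTG, and the cyclic AMP element (CRE), searched as TGACGTCA.
POLR2A: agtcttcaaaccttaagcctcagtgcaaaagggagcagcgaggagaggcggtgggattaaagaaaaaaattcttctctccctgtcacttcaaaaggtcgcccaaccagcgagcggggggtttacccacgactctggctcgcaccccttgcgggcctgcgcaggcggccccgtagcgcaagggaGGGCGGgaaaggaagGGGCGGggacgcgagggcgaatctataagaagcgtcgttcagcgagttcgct
TCEA2: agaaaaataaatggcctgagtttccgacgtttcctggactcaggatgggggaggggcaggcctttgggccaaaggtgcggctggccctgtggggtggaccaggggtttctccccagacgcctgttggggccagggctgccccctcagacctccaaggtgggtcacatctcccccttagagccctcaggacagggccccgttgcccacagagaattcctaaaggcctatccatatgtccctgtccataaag
HEXIM1: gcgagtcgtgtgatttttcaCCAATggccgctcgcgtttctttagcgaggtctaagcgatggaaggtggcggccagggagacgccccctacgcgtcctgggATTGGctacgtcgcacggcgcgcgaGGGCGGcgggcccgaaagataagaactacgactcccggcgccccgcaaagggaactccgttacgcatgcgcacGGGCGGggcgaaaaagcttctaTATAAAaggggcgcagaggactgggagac
MNAT1: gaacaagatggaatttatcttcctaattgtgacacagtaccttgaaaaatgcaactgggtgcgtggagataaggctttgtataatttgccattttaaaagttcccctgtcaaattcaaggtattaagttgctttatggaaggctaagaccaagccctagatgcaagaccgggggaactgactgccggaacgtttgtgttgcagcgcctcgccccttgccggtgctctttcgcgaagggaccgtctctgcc
CDK7: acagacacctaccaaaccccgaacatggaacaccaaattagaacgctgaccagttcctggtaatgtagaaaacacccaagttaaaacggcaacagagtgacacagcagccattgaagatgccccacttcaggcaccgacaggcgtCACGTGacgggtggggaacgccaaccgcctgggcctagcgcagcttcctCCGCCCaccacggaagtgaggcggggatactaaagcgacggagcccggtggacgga
The HEXIM1 promoter held 1 TATA box, 2 CCAAT boxes and 2 GC boxes. That of POLR2A held 2 GC boxes, and that of CDK7 held 1 GC box and 1 E-box. Those of TCEA2 and MNAT1 held no match to these letters in this window. Promoters in the table matched 35 of the 41 genes. GC boxes lay in 24 of the 35 (68.6%), against 42.3% of all 27305 promoters. CCAAT boxes lay in 6 (17.1%), against 33.0% of all, and TATA boxes in 2 (HEXIM1 and GTF2B), against 11.1% of all. E-boxes lay in 6 (17.1%), against 6.49% of all. The AP-1 letters lay in GTF2H1 alone, against 4.16% of all, and the CRE letters in LARP7 alone, against 1.77%. These matches are descriptions of the letters and were not tested. The 27305 promoters include those of genes that were not among the 11184 tested, so the shares are not shown to be particular to this set. The median GC content of the 35 promoters was 60.0%, against 58.0% of all.

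The polymerase itself has a large catalytic pair of subunits, POLR2A and POLR2B, and smaller subunits, several of which it shares with RNA polymerases I and III. POLR2J, a subunit outside the set, was lower in Aa cells by log2 changes of -0.35 at 24 h (adjusted p = 0.0325) and -0.33 at 48 h (adjusted p = 0.0308). Of the 11 subunit genes in the set, 4 rose and 3 fell at 24 h, and 4 rose and 1 fell at 48 h. For this and the groups that follow, the shares over all genes are 26.3% higher and 22.8% lower at 24 h. At 48 h they are 30.6% higher and 33.9% lower. POLR2A, which carries the repeated tail phosphorylated during transcription, was measured at log2 9.31, 8.63 and 8.72 in Aa cells, against 7.05, 7.14 and 7.17 in control cells at 24 h. The 48 h levels were 9.09, 9.11 and 8.94 in Aa cells, against 6.83, 6.98 and 6.92 in control cells. All Aa arrays lay above all control arrays at both times, and Aa replicate 1 at 24 h was the highest. The log2 rise was 1.77 (SE 0.156, adjusted p = 6.22e-06) at 24 h, or 3.40-fold, and 2.14 (SE 0.156, adjusted p = 8.43e-07) at 48 h, or 4.41-fold. POLR2A has 3 probe sets, of which 1 passed the filter.

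POLR2B, the other catalytic subunit, did not pass at either time. Its levels at 24 h were 12.05, 12.25 and 12.10 in Aa cells, against 12.09, 12.21 and 12.40 in control cells. In the 48 h groups its levels were 12.13, 12.05 and 11.97 in Aa cells, against 12.12, 12.39 and 12.17 in control cells. The groups overlapped at both times, with a log2 change of -0.10 at 24 h (adjusted p = 0.497) and -0.17 at 48 h (adjusted p = 0.207).

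POLR2L, a small subunit shared by the nuclear polymerases, fell. Its levels at 24 h were 8.54, 8.17 and 9.00 in Aa cells, against 9.67, 9.44 and 9.95 in control cells. Levels at 48 h were 8.25, 7.39 and 8.56 in Aa cells, against 9.54, 9.18 and 9.99 in control cells. All Aa arrays lay below all control arrays at each time, and replicate 2 was the lowest in every group. The log2 change was -1.12 (SE 0.318, adjusted p = 0.0129) at 24 h and -1.50 (adjusted p = 0.00163) at 48 h, a 2.17-fold and a 2.84-fold fall. Without Aa replicate 2 at 24 h, the 24 h fall no longer passed (log2 change -0.92, adjusted p = 0.0527).

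The other subunits changed by less than 2-fold. POLR2C, which pairs with POLR2J in the assembly of the core, rose by 0.38 (adjusted p = 0.00439) at 24 h and 0.58 (adjusted p = 0.000173) at 48 h on the log2 scale. Of its 3 probe sets over the filter, 1 passed as higher at 24 h and 2 at 48 h. The dimmer ones had log2 changes of 0.13 and 0.09 at 24 h (adjusted p = 0.3 and 0.41). At 48 h these were 0.30 and 0.01 (adjusted p = 0.0178 and 0.913). POLR2K, another shared small subunit, rose by 0.34 (adjusted p = 0.0113) and 0.72 (adjusted p = 5e-05). POLR2F, also shared, had a log2 change of -0.08 (adjusted p = 0.574) at 24 h and rose by 0.72 (adjusted p = 0.00021) at 48 h. These subunits stood higher in Aa cells at 48 h. At 24 h POLR2H rose by 0.33 (adjusted p = 0.0114), while POLR2I, which acts in start-site choice and proofreading in yeast, had a log2 change of -0.39 (adjusted p = 0.00372) and POLR2G, part of the stalk, -0.27 (adjusted p = 0.041). At 48 h these 3 had values of 0.16, 0.06 and -0.12 and did not pass. The POLR2G call was lost when any 1 of 7 arrays was left out (Aa replicates 1 and 2 and control replicates 1, 2 and 3 at 24 h, control replicates 1 and 2 at 48 h), with adjusted p up to 0.14. The 24 h calls of POLR2H and POLR2K were lost with equal array medians (adjusted p = 0.0874 and 0.0725).

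POLR2D, which forms the stalk with POLR2G, had log2 changes of -0.03 and 0.27, and POLR2E, a shared subunit, of -0.37 and -0.67, and neither passed. In the fit with the replicate number as a block, POLR2E passed as lower at both times (adjusted p = 0.00734 and 0.000145) and POLR2D as higher at 48 h (adjusted p = 0.0154). Without the block, the dimmer POLR2E probe set had log2 changes of -0.53 (adjusted p = 0.0767) at 24 h and -0.82 (adjusted p = 0.00875) at 48 h.

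The factors that travel with the polymerase along DNA and nucleosomes include DSIF (SUPT4H1 and SUPT5H), which holds the paused polymerase and later aids elongation, the histone chaperone SPT6 (SUPT6H) and the FACT complex (SUPT16H and SSRP1). Of these 5 genes, 2 rose and 1 fell at 24 h, and 3 rose and none fell at 48 h. SUPT6H measured 10.09, 9.52 and 10.03 in Aa cells, against 9.07, 8.81 and 9.00 in control cells at 24 h. The values at 48 h were 10.57, 10.30 and 10.58 in Aa cells, against 8.92, 8.60 and 8.94 in control cells. The groups did not overlap at either time. SUPT6H rose by 0.92 (SE 0.165, adjusted p = 0.000856) at 24 h and 1.66 (adjusted p = 7.4e-06) at 48 h on the log2 scale, or 1.89-fold and 3.16-fold.

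SUPT5H measured 9.45, 8.76 and 9.14 in Aa cells, against 8.64, 8.19 and 8.69 in control cells at 24 h. After 48 h the levels were 9.50, 9.24 and 9.48 in Aa cells, against 8.68, 7.98 and 8.28 in control cells. Aa arrays lay above control arrays at both times, by a narrow margin at 24 h. It rose by 0.61 (SE 0.218, adjusted p = 0.0389) at 24 h and 1.10 (adjusted p = 0.00109) at 48 h on the log2 scale. The 24 h call was lost without Aa replicate 1 or 3 or control replicate 1 or 2 of that time, with adjusted p up to 0.148, and in 4 other settings, where it was between 0.0505 (equal array medians) and 0.284 (scaling to the hybridisation controls).

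SUPT4H1, the partner of SUPT5H, had log2 changes of 0.20 and 0.25 that did not pass, although both did with the replicate block (adjusted p = 0.0259 and 0.0066). Without the block, its dimmer probe set had log2 changes of 0.15 (adjusted p = 0.474) at 24 h and 0.40 (adjusted p = 0.0428) at 48 h. In FACT, SSRP1 had a log2 change of 0.07 at 24 h and rose by 0.51 (adjusted p = 0.00834) at 48 h. SUPT16H had a log2 change of -0.34 (adjusted p = 0.00725) at 24 h and 0.08 (adjusted p = 0.451) at 48 h.

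The kinases that phosphorylate the tail of POLR2A and their cyclins changed in both directions. Of 9 genes, 1 rose and 2 fell at 24 h, and 3 rose and 4 fell at 48 h. The CDK7 module, made of CDK7, cyclin H (CCNH) and the assembly factor MNAT1, was lower at 48 h in all 3 genes. CDK7 measured 10.62, 10.98 and 10.59 in Aa cells, against 10.97, 11.19 and 10.83 in control cells at 24 h. The 48 h levels were 9.83, 10.01 and 9.46 in Aa cells, against 11.51, 11.70 and 11.22 in control cells. The groups overlapped at 24 h and were far apart at 48 h.

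CDK7 had a log2 change of -0.27 (adjusted p = 0.24, or 0.016 with the replicate block) at 24 h and -1.71 (SE 0.178, adjusted p = 1.05e-05) at 48 h, a 3.28-fold fall. The control cells at 48 h were themselves higher than those at 24 h by 0.48, which did not pass (adjusted p = 0.205) but did with the replicate block (adjusted p = 0.00825). MNAT1 measured 6.78, 7.32 and 7.16 in Aa cells, against 8.22, 8.49 and 8.44 in control cells at 24 h. In the 48 h groups its levels were 6.18, 6.85 and 5.91 in Aa cells, against 8.02, 8.21 and 8.40 in control cells.

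All Aa arrays of MNAT1 lay below all control arrays at both times. Its log2 change was -1.29 (SE 0.225, adjusted p = 0.000693) at 24 h and -1.90 (adjusted p = 2.63e-05) at 48 h, a 2.45-fold and a 3.73-fold fall, from its only probe set. CCNH had a log2 change of -0.27 (adjusted p = 0.0599, or 0.0101 with the replicate block) at 24 h and -0.48 (adjusted p = 0.00268) at 48 h.

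The main cyclin of P-TEFb moved the other way. CCNT1 (cyclin T1) measured 11.17, 11.25 and 11.15 in Aa cells, against 9.60, 9.74 and 9.67 in control cells at 24 h. Levels at 48 h were 11.29, 11.35 and 11.35 in Aa cells, against 9.76, 9.84 and 9.60 in control cells. The arrays within each group lay close together. The log2 rise was 1.52 (SE 0.0909, adjusted p = 3.51e-07) at 24 h, or 2.88-fold, and 1.60 (adjusted p = 1.51e-07) at 48 h, or 3.02-fold. The alternative cyclin CCNT2 had log2 changes of 0.29 and 0.02 and did not pass.

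CDK9, the kinase of P-TEFb, varied with the replicate number. It measured 8.16, 7.01 and 7.77 in Aa cells, against 7.72, 6.75 and 7.45 in control cells at 24 h. The values at 48 h were 8.54, 7.01 and 8.41 in Aa cells, against 7.02, 6.37 and 7.30 in control cells. The groups overlapped at both times, replicate 2 was the lowest in every group, and the Aa array was above the control array of the same number in all 6 pairs. The log2 change was 0.34 (SE 0.442, adjusted p = 0.561) at 24 h and 1.09 (SE 0.442, adjusted p = 0.0489) at 48 h. With the replicate block the adjusted p was 0.108 at 24 h and 0.000301 at 48 h. Without the block, the 48 h call was lost when any 1 of 7 arrays was left out (Aa replicate 3 and control replicates 1 and 3 at 24 h, Aa replicates 1 and 3 and control replicates 1 and 2 at 48 h), with adjusted p up to 0.166. It was also lost with no filter on low values (adjusted p = 0.119) and in a fit of the 48 h arrays alone (adjusted p = 0.0713).

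CDK12 and CDK13, which pair with cyclin K (CCNK) and act later in elongation, gave different answers from different probe sets. By its brightest probe set, CDK12 had a log2 change of -0.67 (adjusted p = 0.00542) at 24 h and -0.68 (adjusted p = 0.00361) at 48 h. Of its 6 probe sets over the filter, 5 were lower in Aa at both times, but the other averaged 8.42 in Aa cells against 4.06 in control cells at 24 h, and 8.54 against 4.31 at 48 h. That is a 20.6-fold and an 18.7-fold rise, and with the mean of all its probe sets the CDK12 change turned to 0.03 and 0.18. CDK13 had log2 changes of 0.31 and 0.48 that did not pass, although the 48 h value did with the replicate block (adjusted p = 0.0155). Its 3 other probe sets over the filter passed as lower at 48 h, by -0.80, -0.92 and -0.73, and the mean of all its probe sets was -0.28 (adjusted p = 0.023). CCNK had log2 changes of 0.30 (adjusted p = 0.12, or 0.0177 with the block) and 0.43 (adjusted p = 0.0265). Its 48 h call was lost without Aa replicate 1 or 3 or control replicate 2 of that time, with adjusted p up to 0.105, and with the mean of all probe sets (adjusted p = 0.0803). The other CCNK probe set lay under the filter, at group means of 2.31 to 2.57.

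**Figure D2:**
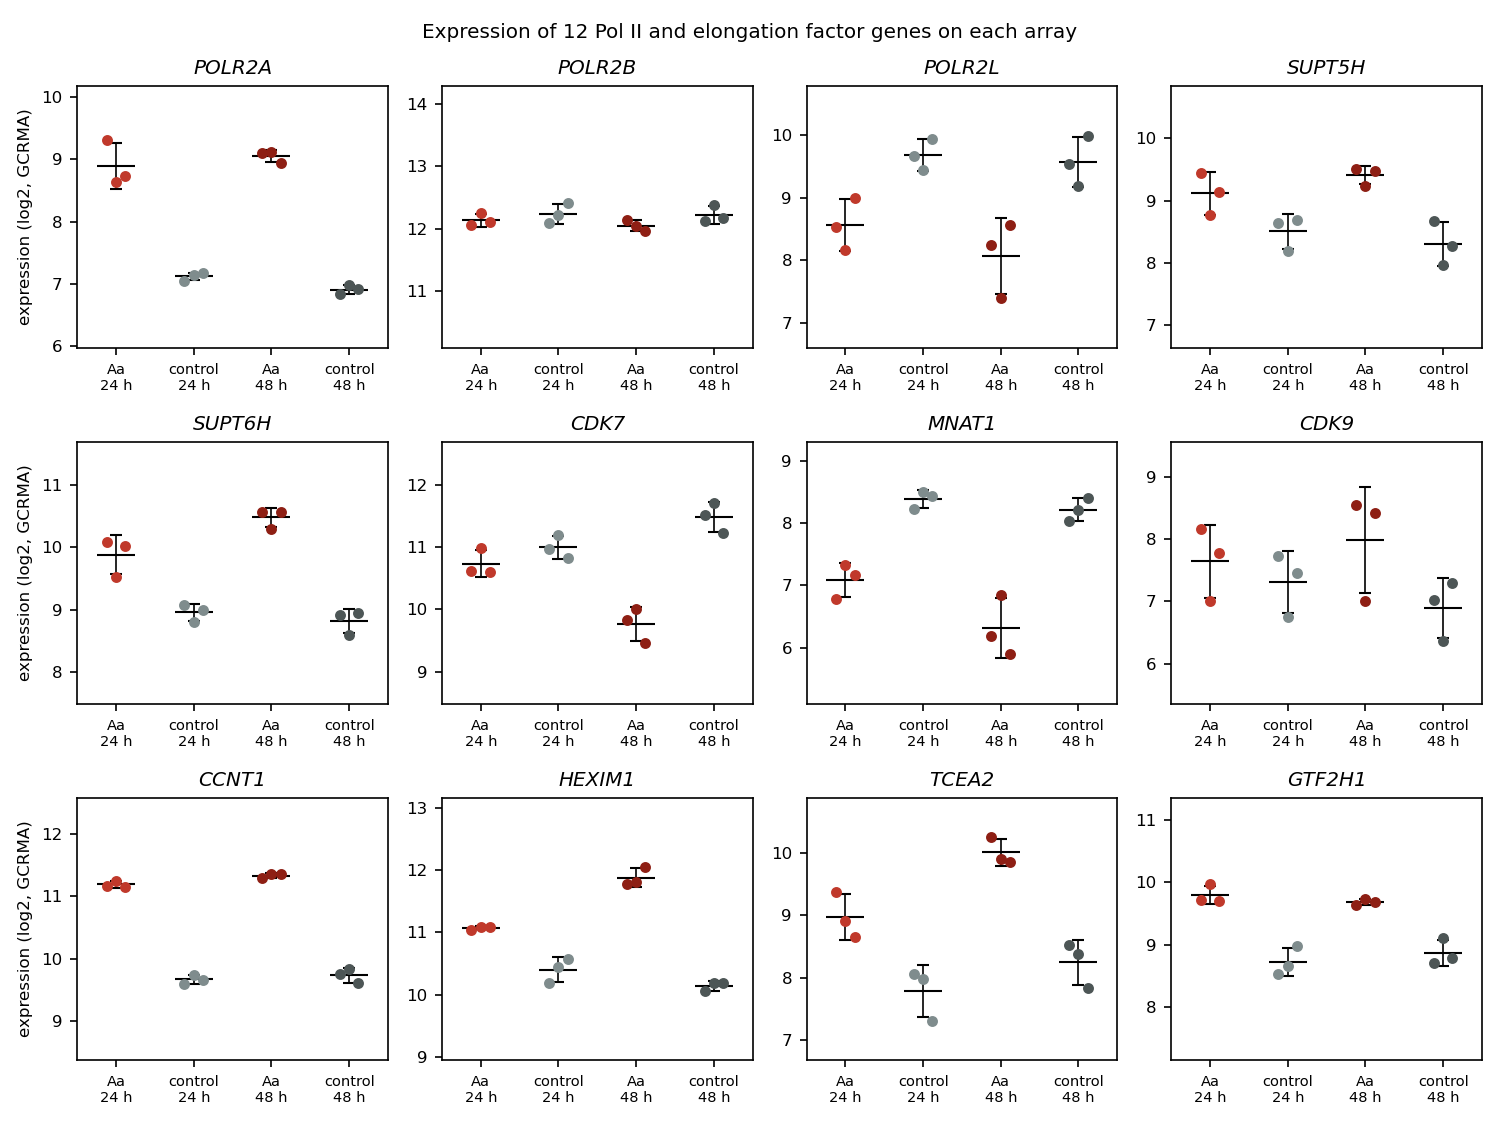
Log2 expression (GCRMA) of 12 genes on each array, with the mean and SD of each group (n = 3), for Aa and control cells at 24 h and then 48 h. Every y axis spans the same number of log2 units: Aa and control arrays are apart at both times for POLR2A, CCNT1, MNAT1 and TCEA2, and overlap at both times for POLR2B and CDK9.

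P-TEFb is restrained by HEXIM1 and the 7SK RNA, which LARP7 binds and stabilises. These 2 genes moved in opposite directions. HEXIM1 measured 11.05, 11.08 and 11.09 in Aa cells, against 10.19, 10.45 and 10.58 in control cells at 24 h. After 48 h the levels were 11.78, 11.80 and 12.06 in Aa cells, against 10.06, 10.19 and 10.20 in control cells. The groups did not overlap, and the gap was wider at 48 h. The log2 rise was 0.67 (SE 0.118, adjusted p = 0.000782) at 24 h and 1.73 (adjusted p = 5.34e-07) at 48 h, or 1.59-fold and 3.32-fold. LARP7 had a log2 change of -0.28 (adjusted p = 0.0227) at 24 h and -0.76 (adjusted p = 2.39e-05) at 48 h. Its 24 h call was lost without Aa replicate 1 or 3 or control replicate 2 of that time, with adjusted p up to 0.0752. With the mean of all its probe sets, 2 of which lie under the filter, LARP7 no longer passed at 48 h (log2 change -0.01, adjusted p = 0.957).

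The super elongation complex (ELL, ELL2 and the scaffold AFF4) brings P-TEFb to paused polymerase, and TFIIS (TCEA1 and TCEA2) rescues stalled polymerase by RNA cleavage. Of these 5 genes, 1 rose and none fell at 24 h, and 1 rose and 1 fell at 48 h. TCEA2 measured 9.37, 8.91 and 8.64 in Aa cells, against 8.06, 7.97 and 7.30 in control cells at 24 h. The 48 h levels were 10.26, 9.91 and 9.86 in Aa cells, against 8.52, 8.37 and 7.83 in control cells. Aa arrays lay above all control arrays at both times, with replicate 1 the highest in every group. TCEA2 rose by 1.20 (SE 0.256, adjusted p = 0.00261) at 24 h and 1.76 (adjusted p = 0.000117) at 48 h on the log2 scale, or 2.29-fold and 3.40-fold. These rises rest on its brightest probe set. Its dimmer probe set over the filter passed at neither time. It stood higher in Aa cells by only 0.09 at 24 h and 0.27 at 48 h (limma's adjusted p of 0.792 and 0.383).

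TCEA1, the broadly expressed TFIIS gene, moved the other way, with log2 changes of -0.17 (adjusted p = 0.115, or 0.0379 with the replicate block) and -0.46 (adjusted p = 0.000498). The 48 h call was lost with the mean of all its probe sets (log2 change -0.08, adjusted p = 0.406). The other TCEA1 probe sets were dim, at group means of 4.09 to 4.36 and 2.17 to 2.20, against 12.64 to 13.10 for the one used. ELL2 had a log2 change of 0.76 at 24 h (adjusted p = 0.0687) and 0.55 at 48 h (adjusted p = 0.153) and AFF4 of 0.29 and -0.15, and none passed, except AFF4 at 24 h with the replicate block (adjusted p = 0.018). ELL lay near the filter's floor of log2 4, with 2 arrays below it, and its changes of 0.01 and 0.00 carry little information.

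The PAF1 complex, made of PAF1, CTR9, LEO1, CDC73 and RTF1, binds elongating polymerase and is needed for histone marks of transcribed genes. Its 5 genes divided: 2 rose and none fell at 24 h, and 2 rose and 1 fell at 48 h. CTR9, the scaffold, rose by 0.48 (adjusted p = 0.0181) at 24 h and 0.58 (adjusted p = 0.00487) at 48 h on the log2 scale. Its 24 h call was lost without Aa replicate 1 or control replicate 2 of that time, with adjusted p up to 0.0754. CDC73, the tumour suppressor parafibromin, had a log2 change of -0.25 (adjusted p = 0.152) at 24 h and -0.77 (adjusted p = 0.00044) at 48 h, where all 3 of its probe sets passed as lower. The CDC73 and CTR9 transcripts therefore stood on opposite sides of 0.

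RTF1 rose by 0.43 (adjusted p = 0.00795) at 24 h, with a log2 change of 0.07 (adjusted p = 0.593) at 48 h. Its dimmer probe set over the filter rose at both times, by 0.39 (adjusted p = 0.0073) and 0.34 (adjusted p = 0.0103). PAF1 had a log2 change of -0.36 (adjusted p = 0.0914, or 0.0226 with the replicate block) at 24 h and rose by 0.66 (adjusted p = 0.00456) at 48 h. LEO1 had log2 changes of -0.18 and -0.23 and passed only at 48 h with the block (adjusted p = 0.0291).

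Among the general initiation factors, 1 of 4 measured genes rose at each time. GTF2H1, a core subunit of TFIIH, measured 9.71, 9.97 and 9.70 in Aa cells, against 8.53, 8.66 and 8.97 in control cells at 24 h. In the 48 h groups its levels were 9.64, 9.73 and 9.68 in Aa cells, against 8.71, 9.10 and 8.79 in control cells. The groups did not overlap. GTF2H1 rose by 1.07 (SE 0.141, adjusted p = 0.000102) at 24 h and 0.82 (adjusted p = 0.000414) at 48 h on the log2 scale. Within TFIIH, this core subunit thus stood higher while the 3 genes of the kinase module stood lower at 48 h. GTF2B, which bridges TBP and the polymerase, had log2 changes of 0.11 and 0.03. The TFIIF genes GTF2F1 and GTF2F2 had log2 changes of -0.10 and -0.19 at 24 h and of 0.37 and -0.34 at 48 h, and did not pass. With the block, GTF2F1 passed as higher and GTF2F2 as lower at 48 h (adjusted p = 0.00283 and 0.00724). Another GTF2F1 probe set rose by 0.59 at 48 h (adjusted p = 0.0397), while the remaining one had a log2 change of -0.004 (adjusted p = 0.988).

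The replicate block added calls without removing any. At 24 h it added SUPT4H1, CCNK and AFF4 as higher, and POLR2E, CDK7, CCNH, TCEA1 and PAF1 as lower. At 48 h it added POLR2D, SUPT4H1, CDK13 and GTF2F1 as higher, and POLR2E, LEO1 and GTF2F2 as lower. In that fit 12 of the 41 genes fell at 24 h, when 29.1% of all genes did.

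The change at 48 h was tested directly against that at 24 h, over the same 12 arrays. Of the 41 genes, 6 had a positive difference, against 6.8% of all genes, and 2 a negative one, against 12.7%. CDK7 had the largest difference, -1.45 (SE 0.252, adjusted p = 0.00507): its fall was larger at 48 h. The difference was 1.06 (SE 0.167, adjusted p = 0.00335) for HEXIM1, whose rise was larger at 48 h. That size rests on the probe set used: the other HEXIM1 probe set over the filter rose by 2.52 and 2.94, a smaller gap between times. PAF1 differed by 1.02 (SE 0.232, adjusted p = 0.0143) and POLR2F by 0.80 (adjusted p = 0.00846), both with values below 0 at 24 h and a rise at 48 h. LARP7 (-0.48), POLR2I (0.46), SUPT16H (0.42) and SUPT6H (0.74) passed with adjusted p between 0.0245 and 0.0481. For POLR2A and CCNT1 the differences were 0.37 (adjusted p = 0.254) and 0.07 (adjusted p = 0.722). With the replicate block 12 genes had a positive difference (15.4% of all genes) and 5 a negative one (23.1%). The added positive differences were those of POLR2K (adjusted p = 0.0181), SUPT5H (0.0325), SSRP1 (0.0354), CDK9 (0.0337), TCEA2 (0.0255) and GTF2F1 (0.0129). The added negative ones were those of AFF4 (adjusted p = 0.022), TCEA1 (0.0254) and CDC73 (0.0457). A difference of at least 1 in size passed in 2 genes upward (3.08% of all genes) and 1 downward (5.67%) without the block.

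The control cells gave 0 calls among the 41 genes between 24 h and 48 h in limma's test, against 0.635% of all genes, with 7 of the 41 at an unadjusted p under 0.05. With the replicate block 3 were higher and 4 lower at 48 h, when 14.9% of all genes passed in either direction. The higher ones were CDK7, AFF4 (adjusted p = 0.0448) and TCEA2 (0.0324), and the lower ones POLR2D (adjusted p = 0.0149), SSRP1 (0.0343), PAF1 (0.0214) and LEO1 (0.0189). Their log2 changes between control times ran from -0.52 (PAF1) to 0.48 (CDK7).

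Several genes were measured by more than 1 probe set. The 41 genes had 106 probe sets naming them alone, of which 78 passed the filter, and 22 genes had more than 1 of these. All probe sets of a gene had the same sign in 18 of the 22 genes at 24 h and in 16 at 48 h. CDK12 was the 1 gene with probe sets that passed in opposite directions. HEXIM1 rose more by its other probe set, 5.73-fold at 24 h and 7.68-fold at 48 h, and so did CCNT1, 3.44-fold and 5.22-fold. All 4 probe sets of SUPT6H were higher in Aa at both times, and the second probe set of GTF2H1 rose by 0.94 and 0.95 on the log2 scale. The second probe set of TCEA2 did not follow its brightest one in size. It was 1.07-fold higher in Aa at 24 h and 1.21-fold higher at 48 h, and passed at neither time. The second probe set of POLR2L averaged 3.97 in Aa cells, against 6.48 in control cells at 24 h, and 3.63 in Aa cells, against 6.16 in control cells at 48 h, with Aa values under the floor of log2 4.

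**Figure D3:**
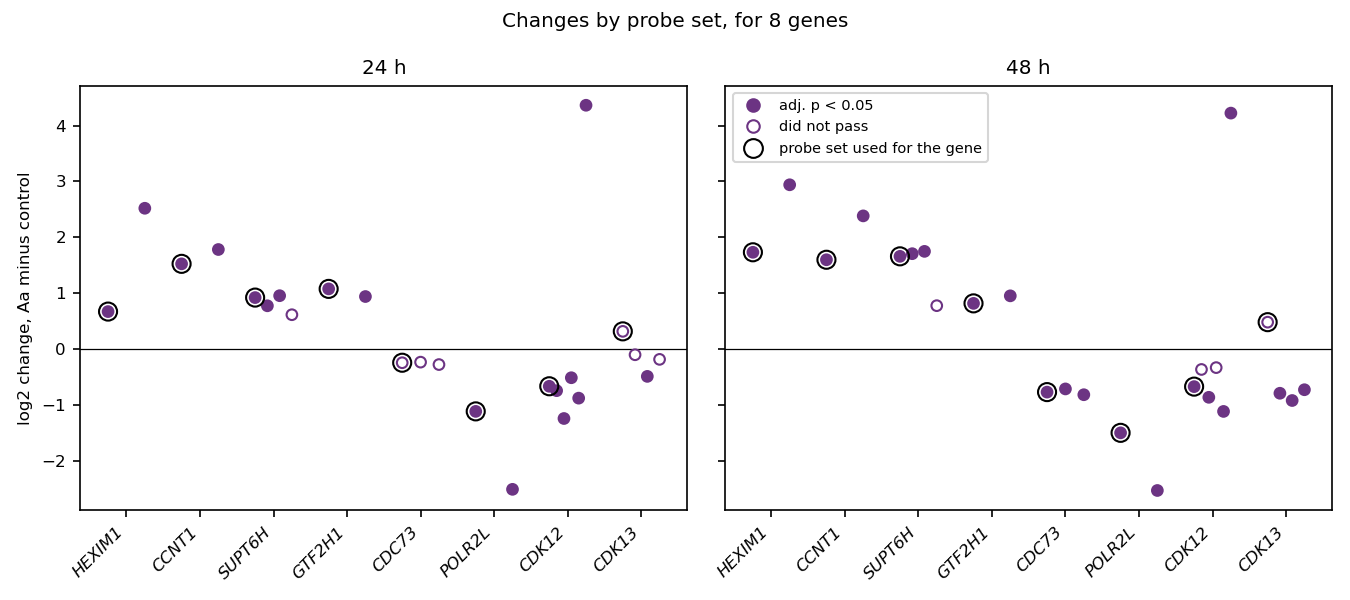
Log2 change (Aa minus control) of every probe set over the filter for 8 genes at 24 h and 48 h. The circled point is the probe set used for the gene, and filled points passed over 20456 probe sets: those of HEXIM1, CCNT1, SUPT6H, GTF2H1, CDC73 and POLR2L share a direction, while 1 probe set of CDK12 rose by 4.37 at 24 h and 4.22 at 48 h and the other 5 were below 0.

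Across all genes tested, long genes were lower in Aa cells, and the values of these genes were set beside that pattern. The span of a gene is its length in the genome, introns included. The Spearman correlation of the log2 change with span was -0.07 at 24 h and -0.34 at 48 h over the 41 genes, against -0.25 and -0.37 over 11137 other genes, all from the same arrays. Of the 6 genes with spans of at least 100 kb, none rose and 2 fell at 24 h, and none rose and 4 fell at 48 h, with median log2 changes of -0.26 and -0.58. Of the 1962 genes of that length among all tested, 10.0% rose and 52.5% fell at 24 h, and 7.65% rose and 71.2% fell at 48 h, with medians of -0.55 and -1.02. MNAT1, at 235 kb, is the longest of the 41. POLR2A spans 30.3 kb, near the median of 31.1 kb for the 41 genes. The part of gene length in these changes was not tested.

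**Figure D4:**
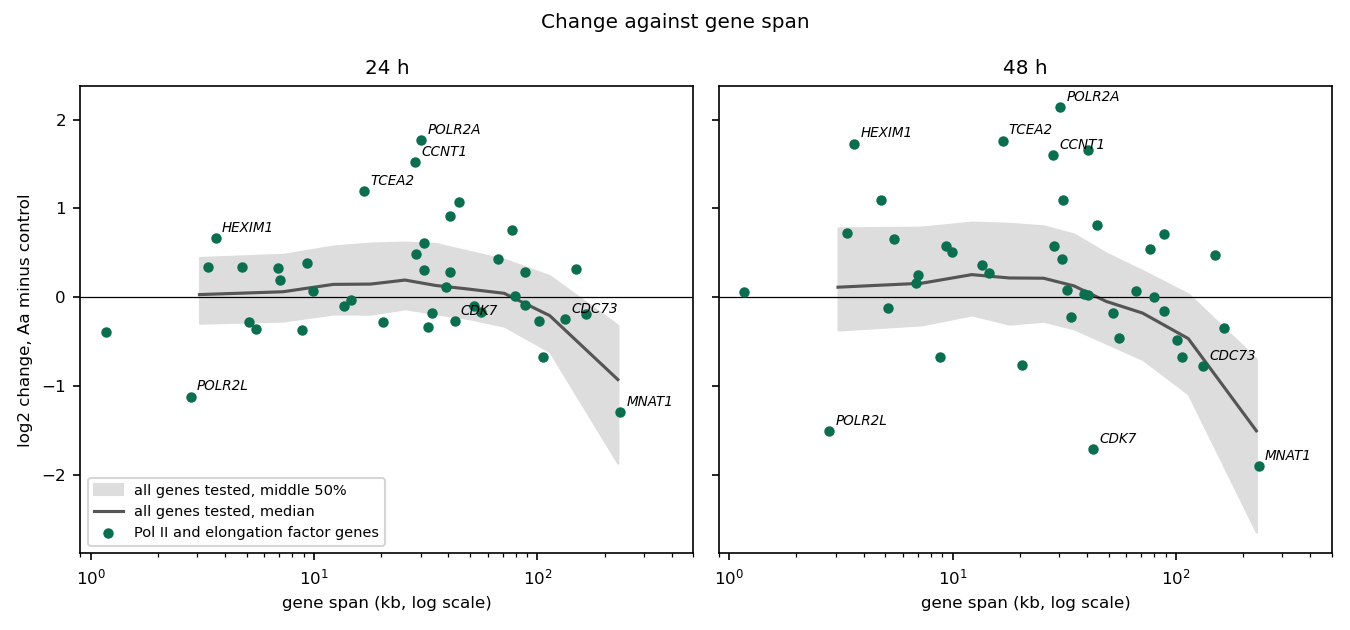
Log2 change (Aa minus control) of the 41 genes against gene span in kb (log axis) at 24 h and 48 h, over the median and the middle 50% of all genes tested in bins of span. In the bin of longest genes the median was -0.93 at 24 h and -1.50 at 48 h, and MNAT1 lies at -1.29 and -1.90.

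Other genes of RNA polymerase II transcription, such as the rest of TFIIH, the termination factors and the Mediator kinases, gave a mix of directions too. Of 37 measured, 13 rose (35.1%) and 7 fell (18.9%) at 24 h, against 26.3% and 22.8% of all genes. At 48 h 13 rose (35.1%) and 12 fell (32.4%), against 30.6% and 33.9%. Their median log2 changes were 0.20 and 0.12, against 0.02 and -0.03 over all genes. At 24 h the largest rises were 1.57 for PCF11, a termination factor (adjusted p = 8.23e-06), 0.99 for MEPCE, the capping enzyme of 7SK RNA (adjusted p = 0.00118), and 0.71 for the TFIIH helicase ERCC3 (adjusted p = 0.000118). The largest falls were -1.21 for EAF2, an ELL partner (adjusted p = 0.000556), -1.05 for MLLT3, a reader subunit of the super elongation complex (adjusted p = 0.00477), and -1.0 for the Mediator kinase CDK19 (adjusted p = 0.00297).

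At 48 h the largest rises were 1.22 for RPAP1, which acts in polymerase assembly (adjusted p = 0.00206), 1.17 for EAF1 (adjusted p = 0.000179) and 0.97 for MEPCE (adjusted p = 0.000934). The largest falls were -1.65 for MLLT3 (adjusted p = 0.000152), -1.55 for AFF1, a scaffold related to AFF4 (adjusted p = 0.00011), and -1.54 for CDK19 (adjusted p = 0.000104). MLLT3 spans 281 kb, and AFF1 and CDK19 span 206 kb each. Of 18 measured subunits of RNA polymerases I and III, 6 rose (33.3%) and 5 fell (27.8%) at 24 h. At 48 h 8 rose (44.4%) and 5 fell (27.8%). Of 25 Mediator genes, 8 rose (32.0%) and 7 fell (28.0%) at 24 h and 9 rose (36.0%) and 8 fell (32.0%) at 48 h. Of all genes 26.3% rose and 22.8% fell at 24 h, and 30.6% and 33.9% at 48 h.

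GCRMA normalises the arrays to a common distribution, which removes any change that most transcripts share. Scaled instead to the 9 hybridisation controls, RNAs added in fixed amounts, the median of all genes moved by -0.28 at 24 h and -0.47 at 48 h. Added at the hybridisation step, these controls do not measure RNA per cell. They averaged log2 10.56 in Aa cells, against 10.28 in control cells at 24 h, and 11.07 against 10.60 at 48 h. Their level thus also differed between the control times, and the cause was not tested. In this scaling 5 of the 41 genes rose (14.5% of all genes) and 15 fell (32.7%) at 24 h, and 7 rose (15.3%) and 19 fell (53.0%) at 48 h. Of the called genes over all tested, 30.7% were then higher at 24 h and 22.3% at 48 h, against 53.6% and 47.5% in the deposited scaling. POLR2A, CCNT1, SUPT6H, TCEA2 and GTF2H1 rose at both times under either scaling, and HEXIM1 and SUPT5H at 48 h. The rises that no longer passed were those of POLR2C, POLR2H, POLR2K, SUPT5H, HEXIM1 (log2 change 0.39, adjusted p = 0.053), CTR9 and RTF1 at 24 h, and of POLR2C, POLR2F, POLR2K, SSRP1, CDK9, CCNK, PAF1 and CTR9 at 48 h, where CCNK turned to -0.04. MNAT1, POLR2L, CDK12 and LARP7 fell at both times under either. Between the times, 1 gene then had a positive difference (2.62% of all genes) and 3 a negative one (13.6%), and 7 were lower in control cells at 48 h than at 24 h (12.5%).

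The correlation between arrays of 1 group, taken over the whole table, was 0.994 to 0.997. Of 15 measured tubule and kidney markers, 3 passed the filter (DPP4, CDH6 and PAX8), while LRP2, CUBN, SLC34A1 and AQP1 were at background. All 5 epithelial markers passed, none of 5 leukocyte and 4 endothelial markers did, and 2 of 4 fibroblast markers did (COL1A1 and DCN), as did SLC12A1 among 4 markers of the distal nephron and podocytes. SLC12A1 averaged 4.04 to 4.09 in the groups, barely over the floor of log2 4. The summed level of the kidney markers was log2 12.8 to 13.0 on Aa arrays, against 13.5 to 13.9 on control arrays at 24 h, and 12.5 to 12.9 against 13.5 to 13.7 at 48 h. Of its 3 expressed members, CDH6 averaged 11.36 in Aa cells, against 12.91 in control cells at 24 h, and 9.74 against 12.50 at 48 h. PAX8 was also lower in Aa cells, and DPP4 was not, at 11.74 against 11.68 and 12.26 against 11.98. The epithelial markers summed to 14.38 to 14.59 on Aa arrays, against 14.84 to 15.02 on control arrays at 24 h, and to 14.36 to 14.72 against 14.63 to 14.89 at 48 h. The fibroblast markers summed to 11.6 to 12.1 on Aa arrays, against 11.9 to 12.5 on control arrays at 24 h, and to 11.67 to 11.98 against 11.9 to 12.2 at 48 h. The 3′ minus 5′ difference of ACTB, which grows with RNA degradation, averaged 0.90 ± 0.32 in Aa cells, against 0.76 ± 0.09 in control cells at 24 h, and 1.15 ± 0.27 against 0.75 ± 0.20 at 48 h (log2, SD, n = 3 each). That of GAPDH was below 0 in every group, at -0.11 ± 0.03 against -0.15 ± 0.04 at 24 h and -0.06 ± 0.05 against -0.12 ± 0.02 at 48 h. The part of these markers and of RNA quality in the changes above was not tested.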

How the data were processed

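RNA of 12 HK-2 samples in 4 groups of 3 was hybridised to Affymetrix arrays. The deposited log2 values were made by the authors with GCRMA, per the submitters' processing notes; the sources used here give no version. Of 54675 probe sets, 62 were controls, 41091 named 1 gene in GEO's platform annotation, 1801 named several, and 41037 of those naming 1 gene matched RefSeq (GRCh38.p14). Promoter sequences and gene spans are RefSeq's. The number of arrays limits the precision: the median SE of a log2 change was 0.161.

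The test was limma's (version 3.58.1, R 4.3.3, lmFit and eBayes), fitted to 4 group means over all 12 arrays, with Benjamini-Hochberg adjustment over 11184 genes, after a test on simulated data. Every adjusted p in the text is limma's. Array values are given for genes that passed with a log2 change of size 1 or more, and for POLR2A, POLR2B, SUPT5H, CDK9, CCNT1 and HEXIM1; of the other Pol II genes the 3 largest rises and falls at each time are named. The genes, lists and rules were chosen with earlier results of these data known, and the lists are described by counts and medians.

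Replicate numbers in the labels paired the samples: deviations from group means correlated at 0.279 to 0.577 for 18 same-numbered pairs and at -0.371 to -0.0286 for 36 others. Blocked values are given where they change a call. Alternatives covered the filter, probe set choice, scaling, a trend in eBayes, the block and leaving out each array. Listed genes with no probe set of their own were not analysed here.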

Additional observations from a re-analysis of the deposited data

Results flagged for a closer look

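The effect of Aa differed between 48 h and 24 h, by limma's interaction test over all genes, for 8 genes. The 48 h change minus the 24 h change was -1.45 for CDK7 and -0.48 for LARP7, both lower in Aa relative to control at 48 h than at 24 h. It was 1.06 for HEXIM1, 1.02 for PAF1, 0.80 for POLR2F, 0.74 for SUPT6H, 0.46 for POLR2I and 0.42 for SUPT16H. By its other probe set over the filter HEXIM1 rose by 2.52 at 24 h and 2.94 at 48 h, a smaller gap between times. The calls of CDK7, HEXIM1, PAF1 and POLR2F passed whichever single array was left out, but those of PAF1 and POLR2F were lost when arrays were scaled to the hybridisation controls (adjusted p = 0.063 for each). Under that scaling SUPT6H (adjusted p = 0.219), POLR2I (0.415) and SUPT16H (0.434) also no longer passed. With the mean of all probe sets SUPT6H (adjusted p = 0.132) and SUPT16H (0.143) were lost. SUPT6H was also lost with no filter on low values (adjusted p = 0.0856), and LARP7 with equal array medians (0.0959). The adjusted p reached 0.109 for SUPT6H and 0.0674 for POLR2I on leaving out any of 8 arrays each, 0.0862 for SUPT16H on leaving out any of 10, and 0.0595 for LARP7 on leaving out any of 5.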

How the results depend on the processing

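Scaled to the hybridisation controls, 5 of the 41 genes rose and 15 fell at 24 h, 7 rose and 19 fell at 48 h, 1 difference between times was positive, and 7 genes were lower in control cells at 48 h than at 24 h. Among genes that passed in either scaling, it also turned the sign at 48 h to -0.41 for POLR2I, -0.39 for SUPT16H, -0.036 for CCNK, -0.40 for RTF1 and -0.44 for GTF2B. Among genes that passed in neither, it turned POLR2D (-0.20), POLR2H (-0.31), SUPT4H1 (-0.22), CCNT2 (-0.45) and GTF2F1 (-0.10) at 48 h and SUPT4H1, SSRP1, ELL and GTF2B at 24 h. With a log2 change of at least 1 required, 4 rose and 2 fell at 24 h, 7 rose and 3 fell at 48 h, and 2 differences between times were positive and 1 negative. With the replicate block, 12 fell at 24 h, 12 differences were positive and 5 negative, and 3 genes were higher and 4 lower in control cells at 48 h; at 24 h and 48 h the block changed no call other than those given, and it lost none. Equal array medians left 1 negative difference, and 3 positive ones remained where most of a gene's probe sets had to pass. Leaving out 1 array gave 3 to 6 positive and 1 to 3 negative differences. The mean of all probe sets turned CDK12 to 0.027 at 24 h and 0.18 at 48 h, CDK13 to -0.28 at 48 h, and the LARP7 difference between times to 0.30, for LARP7 through 2 probe sets under the filter. The cause of the other changes was not tested. A stricter floor, quantile normalization, a trend in eBayes and no filter moved no count by over 1.5 times. Values near log2 4, such as those of ELL, limit what can be seen there.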

Other observations

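GTF2H2, a core subunit of TFIIH with near-identical copies in the genome, was read by 3 probe sets that each name several genes, so its own level cannot be separated. The probe set naming 4 genes averaged log2 8.72 ± 0.19 in Aa cells, against 8.74 ± 0.22 in control cells at 24 h, and 8.23 ± 0.15 in Aa cells, against 8.79 ± 0.17 in control cells at 48 h (SD, n = 3 each). The probe set naming 3 genes averaged 8.65 ± 0.36 in Aa cells, against 9.31 ± 0.29 in control cells at 24 h, and 8.44 ± 0.11 in Aa cells, against 9.29 ± 0.40 in control cells at 48 h. The probe set naming 2 genes averaged 8.22 ± 0.12 in Aa cells, against 7.54 ± 0.15 in control cells at 24 h, and 7.63 ± 0.06 in Aa cells, against 7.54 ± 0.20 in control cells at 48 h. These differences were not tested.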
